A study of Mus musculus with 10 samples.

Results

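Transcript levels of 10 adipocyte marker genes were examined in mouse ear skin, out of 19703 genes in the deposited expression table. The members were taken by gene symbol, and all 10 symbols were found. They are the adipokine genes Adipoq, Lep, Cfd and Retn, the lipid droplet genes Plin1, Plin4 and Cidec, the fatty acid carrier gene Fabp4, the adipogenic regulator gene Pparg and the lipolysis receptor gene Adrb3. RNA-seq was done on 10 samples of ear skin. In the antagonist group (5 samples), mice had the ear painted with MC903 and were gavaged with the urotensin II receptor antagonist GSK1562590 at 5 mg/kg in 100 µl. In the vehicle group (5 samples), mice were painted with MC903 in the same way and gavaged with the same volume of vehicle. MC903 is calcipotriol, a vitamin D analogue that provokes itch and inflammation of the skin resembling atopic dermatitis. Both groups therefore carry the MC903 treatment, which was given on 7 consecutive days and again on day 8, the day of gavage. Skin was taken on day 13, per the labels. Levels in untreated ears were not analysed here. Whether every numbered sample is a mouse of its own is not stated, and p-values therefore refer to the spread between samples, which may be technical.

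White adipocytes lie under the dermis of mouse skin and store triglyceride in a single large droplet coated by perilipins and CIDE proteins. Insulin and the nuclear receptor PPARγ favour storage, while fasting and β-adrenergic signals release fatty acids by lipolysis. Adipocytes also secrete hormones: leptin, whose transcript follows the amount of stored fat and drops in fasting, adiponectin, the serine protease adipsin (complement factor D), and, in mice, resistin.

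The libraries held 20183024 to 20606007 expected counts, and 15174 genes passed the filter on low counts. The skin keratin transcript Krt14 ranged from 8372 to 13179 TPM (a level scaled by transcript length and library total). The fat-defining transcripts Adipoq, Plin1 and Cidec were detected in all 10 libraries, at 15.4 to 59.2, 1.17 to 19.3 and 10.5 to 59.1 TPM over both groups. One antagonist library, replicate 8, had the lowest level of the 10 libraries for 6 of the 10 members, Adipoq, Lep, Cfd, Retn, Plin1 and Cidec. In whole skin, fewer adipocytes and less RNA per adipocyte cannot be told apart.

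The fat markers did not move as a block. Of the 9 tested members, Plin4 alone rose in antagonist ears, 0 were called lower and 8 did not pass an adjusted p of 0.05 (edgeR's quasi-likelihood test, Benjamini-Hochberg over all tested genes). Over all 15174 tested genes, 34.1% were called, 16.7% higher and 17.4% lower, so a call in 1 of 9 members (11.1%) is not above the background. At an unadjusted p under 0.05, 1 of the 8 uncalled members was lower, Lep. Lep was also called lower by limma-voom and by limma-trend on TPM, and not by DESeq2. The median log2 fold change of the 9 members was −0.025, against −0.00018 over all tested genes. Adrb3 did not pass the filter on low counts. With the cartilage list's mean log2 CPM as a covariate, 0 members and 0 genes of the whole table were called, while 1800 genes reached an unadjusted p under 0.05. Most markers of that list were themselves lower in antagonist ears, so the covariate overlaps with the group and this fit cannot separate them. The calls below are those of the model without the covariate.

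**Figure D1:**
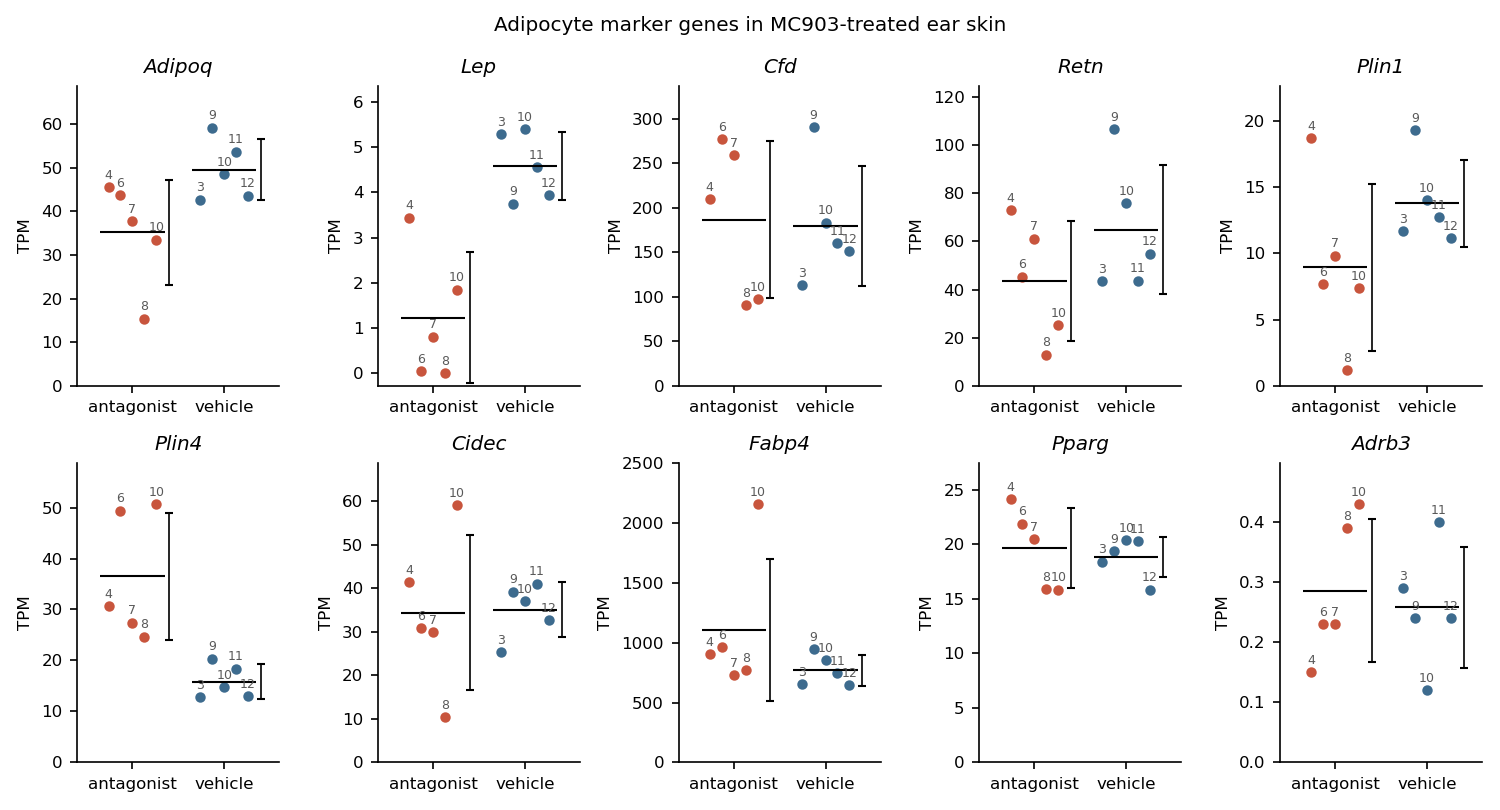
Level of each of the 10 adipocyte marker genes in TPM (y axis) in antagonist and vehicle libraries (x axis). Points are libraries with their replicate number, horizontal lines are group means and vertical bars are ± 1 SD (n = 5 each). Plin4 and Lep are the genes whose groups do not overlap, and antagonist replicate 8 is lowest for 6 genes.

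Plin4 encodes perilipin 4, a coat protein of lipid droplets that is abundant in white fat and also present in heart and muscle. Its level was 30.7, 49.4, 27.4, 24.7 and 50.6 TPM in antagonist replicates 4, 6, 7, 8 and 10, against 12.8, 20.3, 14.7, 18.4 and 13.0 TPM in vehicle replicates 3, 9, 10, 11 and 12. Every antagonist library lay above every vehicle library, which was so for 7.34% of all tested genes. Plin4 averaged 36.5 ± 12.5 TPM in antagonist ears and 15.8 ± 3.38 TPM in vehicle ears (SD, n = 5 each). The log2 fold change was 1.24 ± 0.21 (SE; 95% confidence interval 0.77 to 1.71), a 2.36-fold rise with an edgeR adjusted p of 0.00244. In the authors' deposited table the log2 fold change was 1.24 with a DESeq2 adjusted p of 2.74e-07. Without antagonist replicate 8 the log2 fold change was 1.35. Plin4 is on chromosome 17 from 56100587 to 56109948 (GRCm38), where the GENCODE M21 annotation overlaps it with Hdgfl2 on the opposite strand. The library protocol names no step that marks strand, so reads of both genes may not have been told apart. Hdgfl2 itself had a log2 fold change of 0.14 with an edgeR adjusted p of 0.110.

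Lep encodes leptin, the satiety hormone of adipocytes. It was present in every vehicle library and nearly missing in some antagonist libraries. The expected counts were 133, 2, 33, 0 and 71 in antagonist replicates 4, 6, 7, 8 and 10, against 209, 145, 218, 173 and 154 in vehicle replicates 3, 9, 10, 11 and 12. These counts correspond to 3.44, 0.05, 0.81, 0 and 1.85 TPM in antagonist ears and to 5.28, 3.75, 5.39, 4.56 and 3.94 TPM in vehicle ears. The groups did not overlap, with all 5 antagonist libraries below all 5 vehicle libraries, as for 9.9% of all tested genes. Antagonist replicate 4 nearly reached the lowest vehicle library. The 0 in antagonist replicate 8 allows up to 3 counts, or 0.148 CPM (the count scaled by library total), counting error alone. Lep averaged 1.23 ± 1.45 TPM in antagonist ears and 4.58 ± 0.75 TPM in vehicle ears (SD, n = 5 each).

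By edgeR the log2 fold change of Lep was −1.93 ± 0.72 (SE; 95% confidence interval −3.52 to −0.35), with an adjusted p of 0.0581, which misses the threshold of 0.05. Without antagonist replicate 4, the library with the highest antagonist level, the log2 fold change was −2.74 with an edgeR adjusted p of 0.0132. Without antagonist replicate 8 it was −1.61 with an adjusted p of 0.0633. Limma-voom with sample weights gave −3.93 with an adjusted p of 0.00938, and DESeq2 gave −1.94 with an adjusted p of 0.150. For Lep the authors' deposited table lists −1.94 on the log2 scale, with a DESeq2 q-value of 0.18. Over 21 alternative settings the log2 fold change ranged from −3.93 to −1.18 and the adjusted p from 0.00936 to 0.694, the weakest being that with the cartilage covariate.

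**Figure D2:**
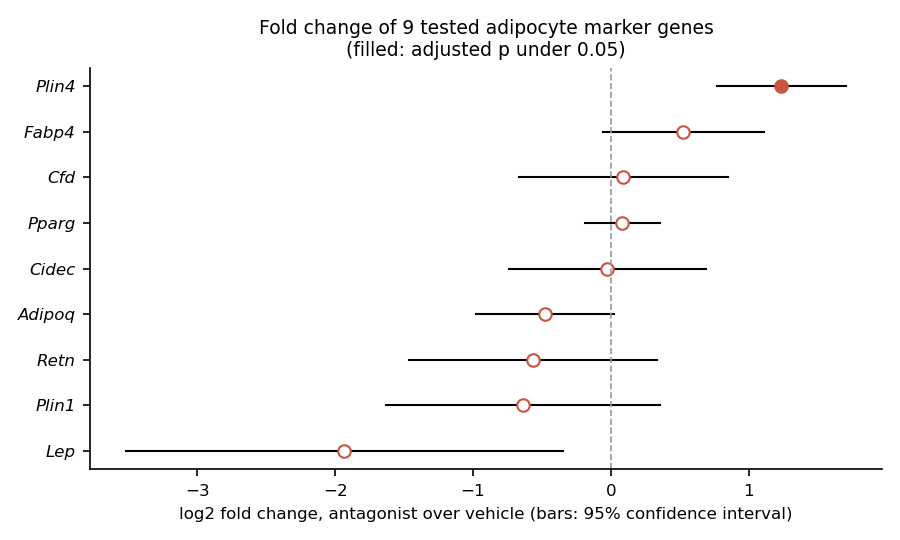
Log2 fold change of antagonist over vehicle for the 9 tested members (x axis), from edgeR, with 95% confidence intervals as bars. Plin4, at 1.24, is the filled point with an adjusted p under 0.05, and Lep, at −1.93, has the widest interval.

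The other adipokine genes showed smaller differences. Adipoq encodes adiponectin, a hormone that favours insulin sensitivity. Its level was 45.5, 43.7, 37.8, 15.4 and 33.5 TPM in antagonist replicates 4, 6, 7, 8 and 10, against 42.7, 59.2, 48.5, 53.6 and 43.6 TPM in vehicle replicates 3, 9, 10, 11 and 12. The groups overlapped, with antagonist replicates 7, 8 and 10 below all vehicle libraries and replicates 4 and 6 among them. Adipoq averaged 35.2 ± 12.02 TPM in antagonist ears and 49.5 ± 6.95 TPM in vehicle ears (SD, n = 5 each). The log2 fold change of −0.48 ± 0.23 (SE; 95% confidence interval −0.98 to 0.025) had an edgeR adjusted p of 0.126. Without antagonist replicate 8 it was −0.29, with an adjusted p of 0.0722.

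Retn encodes resistin, which white fat secretes in mice. It ranged from 12.9 to 73.1 TPM with a median of 45.4 in antagonist ears, against 43.4 to 107 TPM with a median of 55.0 in vehicle ears. The log2 fold change was −0.56 (95% confidence interval −1.46 to 0.34), with an edgeR adjusted p of 0.307. It was −0.33 without antagonist replicate 8 and −0.33 without vehicle replicate 9 (edgeR adjusted p of 0.481 and 0.572). Cfd, the gene of adipsin, was the most abundant adipokine transcript. It ranged from 90.4 to 277 TPM with a median of 209 in antagonist ears, against 113 to 290 TPM with a median of 160 in vehicle ears. Its log2 fold change of 0.09 (95% confidence interval −0.67 to 0.85) had an edgeR adjusted p of 0.857, and it was 0.27 without antagonist replicate 8. The groups overlapped for both genes. For Retn, antagonist replicates 8 and 10 lay below all vehicle libraries and vehicle replicates 9 and 10 above all antagonist libraries. The interval of Cfd includes a rise of about the size estimated for Fabp4, so equal levels are not shown.

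Among lipid droplet genes, Plin4 rose, while Plin1 and Cidec did not pass the test. Plin1 encodes perilipin 1, the droplet gatekeeper through which β-adrenergic signals open fat stores to lipases. It was at 18.7, 7.67, 9.83, 1.17 and 7.38 TPM in antagonist replicates 4, 6, 7, 8 and 10, against 11.7, 19.3, 14.0, 12.8 and 11.2 TPM in vehicle replicates 3, 9, 10, 11 and 12. Antagonist replicates 6, 7, 8 and 10 lay below all vehicle libraries, and replicate 4 lay near the top of the vehicle range. Plin1 averaged 8.95 ± 6.33 TPM in antagonist ears and 13.8 ± 3.27 TPM in vehicle ears (SD, n = 5 each), a log2 fold change of −0.64 (95% confidence interval −1.63 to 0.36) with an edgeR adjusted p of 0.296. Without antagonist replicate 4 it was −1.04 (edgeR adjusted p = 0.0773), and without antagonist replicate 8 it was −0.35 (edgeR adjusted p = 0.316). Cidec encodes the protein that fuses droplets into the single droplet of white fat. It ranged from 10.5 to 59.1 TPM in antagonist ears and from 25.4 to 41.1 TPM in vehicle ears, so the antagonist range enclosed the vehicle range. The lowest was antagonist replicate 8 and the highest antagonist replicate 10. Its log2 fold change was −0.03 (95% confidence interval −0.74 to 0.69; edgeR adjusted p = 0.960), and 0.21 without antagonist replicate 8. The deposited table lists Cidec on the + strand, where GENCODE M21 has it on the − strand.

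Fabp4 encodes the fatty acid binding protein aP2, which is also known from endothelium and macrophages. It was the most abundant of the 10 transcripts, at 905, 966, 731, 773 and 2157 TPM in antagonist replicates 4, 6, 7, 8 and 10, against 654, 949, 857, 744 and 646 TPM in vehicle replicates 3, 9, 10, 11 and 12. Antagonist replicate 10 stood far above all others. Antagonist replicates 4, 7 and 8 lay inside the vehicle range, and replicate 6, at 966 TPM, just above it. The log2 fold change was 0.53 ± 0.27 (SE; 95% confidence interval −0.055 to 1.11), with an edgeR adjusted p of 0.144. Without antagonist replicate 10 it was 0.15, with an edgeR adjusted p of 0.376. Pparg encodes PPARγ, the master regulator of fat cell formation, which sebaceous glands also express. It was the steadiest member, at 15.8 to 24.1 TPM in antagonist ears and 15.8 to 20.3 TPM in vehicle ears. Its log2 fold change was 0.08 (95% confidence interval −0.19 to 0.36), with an edgeR adjusted p of 0.630. Adrb3, the β3-adrenergic receptor of mouse fat, had 5 to 15 expected counts per antagonist library and 4 to 13 per vehicle library. At 0.15 to 0.43 TPM in antagonist ears and 0.12 to 0.40 TPM in vehicle ears, it was not tested by edgeR, and an exact two-sided permutation test of its log2 CPM gave p = 0.651. Such a low count could not show a modest difference.

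Ordered by mean TPM in vehicle ears, the members ran Fabp4, Cfd, Retn, Adipoq, Cidec, Pparg, Plin4, Plin1, Lep and Adrb3. In antagonist ears the order was Fabp4, Cfd, Retn, Plin4, Adipoq, Cidec, Pparg, Plin1, Lep and Adrb3, with Plin4 moved up to the fourth place. There the means of Plin4, Adipoq and Cidec, at 36.5, 35.2 and 34.4 TPM, lay within 1 SD of each other. All 10 members had a larger coefficient of variation in antagonist than in vehicle ears, which was so for 61.2% of all tested genes. The coefficient was 117% and 16.3% for Lep, 70.7% and 23.7% for Plin1, and 51.8% and 17.9% for Cidec, in antagonist and in vehicle ears.

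To show whether the markers kept their proportions, each member was set against Adipoq inside each library as a log2 ratio of CPM. The group difference of the 9 ratios was tested by exact permutation of the libraries between groups, two-sided, with Benjamini-Hochberg adjustment over the 9. The Plin4 to Adipoq log2 ratio averaged 2.42 ± 0.58 in antagonist and 0.67 ± 0.11 in vehicle libraries (SD, n = 5 each), a difference of 1.75. The Fabp4 ratio was 4.03 ± 0.82 in antagonist and 3.04 ± 0.13 in vehicle libraries, and the Pparg ratio −0.16 ± 0.47 in antagonist and −0.79 ± 0.16 in vehicle libraries (SD, n = 5 each). For these 3 genes all 5 antagonist libraries lay above all 5 vehicle libraries, with an exact permutation p of 0.00794, the smallest that 5 against 5 libraries can give, and an adjusted p of 0.0238. The share of all tested genes whose ratio to Adipoq separates in this way was not computed. Pparg itself had a log2 fold change of 0.08 and Adipoq one of −0.48, neither called by edgeR. With a library left out or with TPM in place of CPM, the adjusted p of these 3 ratios ranged from 0.0238 to 0.0476.

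The Lep to Adipoq log2 ratio averaged −4.64 ± 2.34 in antagonist and −1.99 ± 0.37 in vehicle libraries (SD, n = 5 each), and 4 of 5 antagonist libraries lay below all vehicle libraries. Its difference of −2.65 had an exact permutation p of 0.0159 and an adjusted p of 0.0357. This call was lost when antagonist replicate 6, 7, 8 or 10, or vehicle replicate 3, 10, 11 or 12 was left out. The adjusted p by the exact permutation test was then 0.0571 to 0.0714. With any 1 library left out the difference was −3.24 to −1.97. Leaving out a library gives the exact test fewer rearrangements, so the smallest p it can reach is larger. The ratios of Plin1, Retn, Cidec, Cfd and Adrb3 to Adipoq did not pass, with an adjusted p of 0.171 to 0.603 by the same exact test. A ratio shows that a gene changed unequally to Adipoq and not which of the pair changed.

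**Figure D3:**
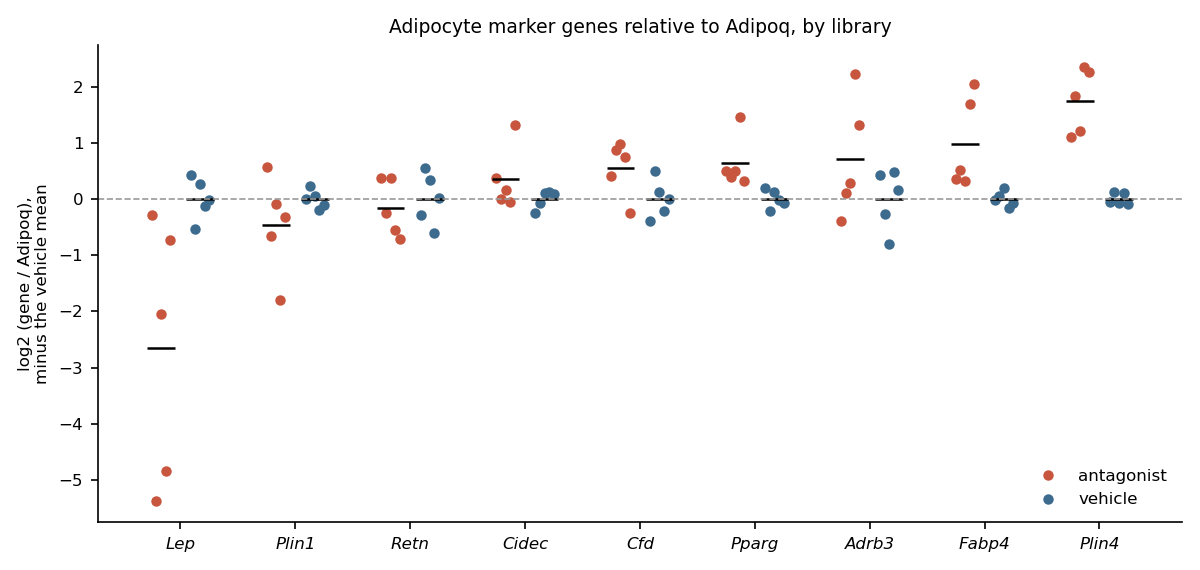
Log2 ratio of each member to Adipoq in each library, minus the mean ratio of the vehicle libraries (y axis), for 9 members (x axis). Points are libraries, and short lines are group means (n = 5 each). All 5 antagonist libraries lie above the vehicle libraries for Pparg, Fabp4 and Plin4, and Lep spreads furthest, down to below −5.

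Inside groups, Plin1 and Cfd varied with Adipoq by both measures of correlation, and Retn by Pearson's r. With each group's mean removed, the log2 CPM of Plin1 varied with that of Adipoq over the 10 libraries at Pearson's r = 0.938 and Spearman's rho = 0.879, with an adjusted exact permutation p of 0.0404 and 0.0175. For Cfd these were r = 0.766 and rho = 0.903 (adjusted exact permutation p of 0.0138 and 0.0175), and for Retn r = 0.855 and rho = 0.721 (0.04 and 0.114). The p-values come from all 14400 rearrangements of libraries within groups and were adjusted over 9 relations. The share of all tested genes that vary with Adipoq as closely was not computed. With the 2 libraries farthest from the median of Adipoq left out, antagonist replicates 6 and 8, r was 0.906 for Plin1, 0.726 for Cfd and 0.818 for Retn. The group means were not recomputed, so the remaining antagonist libraries kept a shift set by those left out. These r values are therefore not purely within groups. Cidec had r = 0.792 (adjusted exact permutation p of 0.26), which dropped to 0.30 by that calculation without those libraries and so rests on them. Plin4 and Fabp4 had r = 0.525 and 0.191, with an adjusted exact permutation p of 0.299 and 0.681. Lep had r = 0.534, with an adjusted exact permutation p of 0.397, and Pparg r = 0.678, with 0.0992. Adrb3 had r = −0.487, with an adjusted exact permutation p of 0.299. Spearman's rho was 0.467 for Cidec, 0.333 for Plin4, 0.164 for Fabp4, 0.248 for Lep, 0.745 for Pparg and −0.576 for Adrb3, with adjusted exact permutation p of 0.114 to 0.716.

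**Figure D4:**
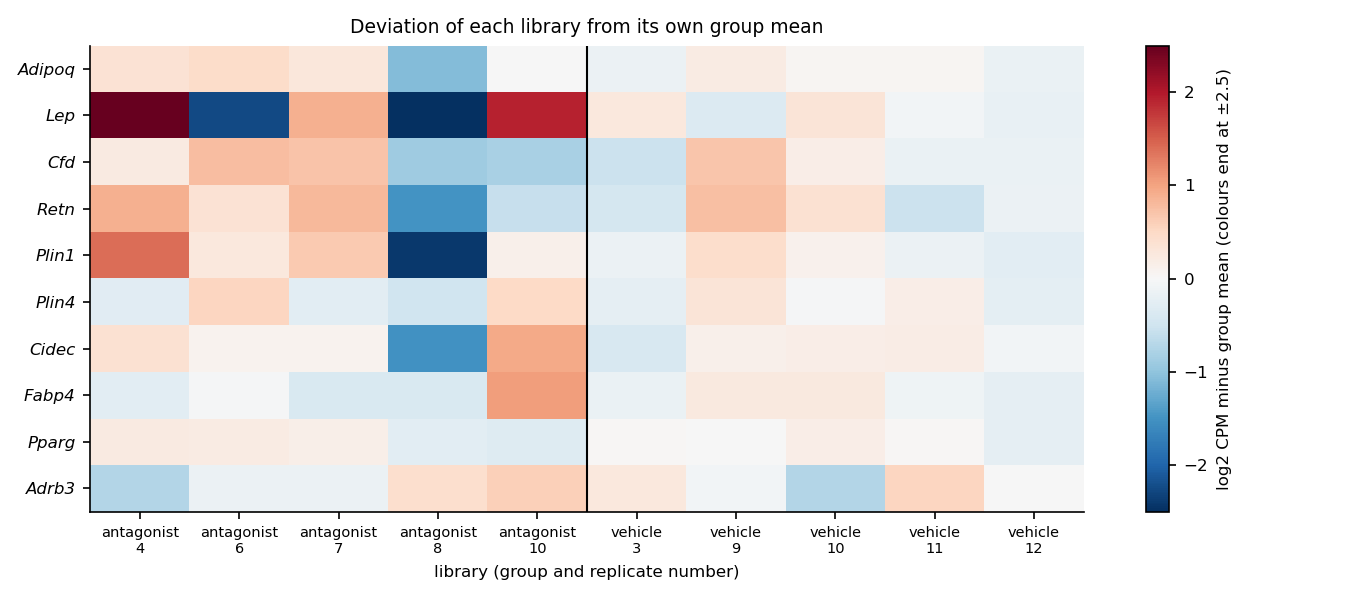
Log2 CPM of each member (rows) in each library (columns) minus the mean of its own group, with antagonist libraries left of the line and vehicle libraries right of it. Antagonist replicate 8 is the lowest of the 10 libraries for 8 genes, all but Pparg and Adrb3, and Lep deviates most, from −3.28 in replicate 8 to 2.74 in replicate 4.

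The mean within-group pattern of Adipoq, Plin1 and Cidec was then set against all 15174 tested genes as a description of likeness over the 10 libraries. Among genes outside the 10 members whose mean log2 CPM was 1 or more, the 10 most alike were B3galt2, Dlc1, Fut1, Slc7a10, Tshr, Gpd1, Pomgnt2, Ccdc137, Zscan22 and Gm2457, with r of 0.936 to 0.989. Slc7a10, an amino acid transporter of white adipocytes, and Gpd1, which makes the glycerol phosphate used for triglyceride, were also on the list of other adipocyte identity genes. Gpd1 ranged from 6.70 to 52.0 TPM in antagonist ears and from 18.5 to 39.2 TPM in vehicle ears. B3galt2, a galactosyltransferase, ranged from 0.26 to 2.90 TPM in antagonist ears and from 1.70 to 3.14 TPM in vehicle ears. Without antagonist replicate 8 the r of the 10 genes was 0.418 to 0.873. Over all 10 libraries, Lep stood at r = 0.748, Plin4 at 0.487 and Fabp4 at 0.346, and without antagonist replicate 8 these were 0.427, 0.0051 and 0.091. Retn, Cfd and Pparg stood at 0.809, 0.594 and 0.522, and at 0.614, 0.351 and 0.309 without that library. By r over all 10 libraries, Retn ranked 149, Lep 304, Cfd 1094, Pparg 1605, Plin4 1880 and Fabp4 3169 among the 15174 genes. Of the genes that define the pattern, Adipoq, Plin1 and Cidec had r of 0.564, 0.846 and 0.419 without antagonist replicate 8.

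Upstream sequences are shown for 4 members. These are Plin4 and Lep, whose groups did not overlap, and Plin1 and Adipoq, with the highest r among the 9 relations to Adipoq. They are the 250 bases before the start annotated by RefSeq (GRCm38.p6), 5′ to 3′ on the strand of the gene. The deposited table lets Plin4 reach to 56109948 and Plin1 to 79732904, beyond the RefSeq starts. By that annotation the windows of Plin4 and Plin1 lie partly inside the gene. Windows were found for 8 of the 10 members. Capitals mark matches to TTGCNNAA on either strand, a short form of the site bound by C/EBP factors, which drive fat cell genes together with PPARγ.
Plin4, chr17:56109783-56110032, − strand: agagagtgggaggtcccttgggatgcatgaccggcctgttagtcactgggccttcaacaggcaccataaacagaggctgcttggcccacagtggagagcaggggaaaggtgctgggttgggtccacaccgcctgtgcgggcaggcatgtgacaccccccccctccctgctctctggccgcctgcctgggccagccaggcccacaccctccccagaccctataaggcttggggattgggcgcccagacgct
Lep, chr6:29059971-29060220, + strand: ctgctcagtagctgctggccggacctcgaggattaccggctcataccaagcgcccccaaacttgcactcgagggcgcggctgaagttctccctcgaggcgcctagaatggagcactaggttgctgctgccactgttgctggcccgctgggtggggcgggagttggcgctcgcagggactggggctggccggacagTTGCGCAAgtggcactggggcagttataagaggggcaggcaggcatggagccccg
Plin1, chr7:79732777-79733026, − strand: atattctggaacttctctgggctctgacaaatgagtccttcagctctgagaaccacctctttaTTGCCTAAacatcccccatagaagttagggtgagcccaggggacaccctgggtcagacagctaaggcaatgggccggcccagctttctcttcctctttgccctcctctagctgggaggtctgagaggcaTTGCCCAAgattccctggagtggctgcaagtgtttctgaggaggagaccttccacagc
Adipoq, chr16:23146286-23146535, + strand: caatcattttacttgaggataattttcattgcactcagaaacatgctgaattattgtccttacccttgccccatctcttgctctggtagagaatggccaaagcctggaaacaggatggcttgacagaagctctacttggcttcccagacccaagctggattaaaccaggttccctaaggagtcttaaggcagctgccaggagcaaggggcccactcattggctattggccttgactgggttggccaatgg
The window of Lep held 1 match, beginning 55 bases before the RefSeq start, and that of Plin1 held 2, at 187 and 58 bases before it. The Plin1 match at 58 bases lies inside the gene as the deposited table places it. Those of Plin4 and Adipoq held 0. Among the members not shown, 1 window each of Cidec and Pparg held a match, and Cfd and Retn had none, so that 4 of the 8 members had a match in at least 1 of their 11 windows in all. Over all 32851 windows of this length in the table, 9.56% held this motif. That is a share of windows, while 4 of 8 is a share of genes, some with more than 1 window. The share over all genes was not computed, so these shares cannot be compared. A direct repeat of AGGNCA with 1 base of any kind between the copies, bound by PPARγ with its partner RXR, was in 0.338% of all windows on either strand and in none of the members' windows. TATAAA on the gene's strand was in 7.59% of all windows and in none of the members'. A match is a run of letters and does not show binding.

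The other genes of fat storage and breakdown were read from 10 lists with 130 genes, of which 125 could be tested. Of these, 28 were higher in antagonist ears, 22 lower and 75 did not pass (edgeR, adjusted p under 0.05), so 22.4% were higher and 17.6% lower, beside 16.7% and 17.4% of all tested genes. The median log2 fold change was 0.05. Without vehicle replicate 10, 14 of these genes were lower, and with the cartilage covariate 0 were called in either direction. Levels with a ± below are mean TPM ± SD, n = 5 each.

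The remaining lipid droplet genes included 3 higher and 0 lower among 8 tested of 9 (edgeR), with a median log2 fold change of 0.25. The count of lower genes was also 0 at an unadjusted p under 0.05, by DESeq2 and by limma-voom. It was 1 in 2 of the 21 alternative settings, limma-trend with no filter on low values among them. Plin5, a perilipin that ties droplets to mitochondria in oxidative tissue, was at 2.66 ± 0.49 TPM in antagonist ears and 1.09 ± 0.24 TPM in vehicle ears, a log2 fold change of 1.32 ± 0.20 (SE, edgeR adjusted p = 0.00141). Plin3, a widely expressed perilipin, rose by 0.29 on the log2 scale, and Fitm2, an endoplasmic reticulum protein needed for droplet formation, by 0.36. Plin2, the perilipin of most other cells, was at 219 ± 62.6 TPM in antagonist ears and 189 ± 25.4 TPM in vehicle ears and did not pass (edgeR adjusted p = 0.345). Of the 5 perilipins, then, Plin3, Plin4 and Plin5 were higher, and Plin1 and Plin2 did not pass.

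Among genes of lipolysis and its control, 1 of 13 tested rose and 2 fell. The riser was Pnpla2, adipose triglyceride lipase, the enzyme that starts triglyceride breakdown. It was at 128, 308, 154, 278 and 328 TPM in antagonist replicates 4, 6, 7, 8 and 10, against 78.4, 106, 94.6, 103 and 76.0 TPM in vehicle replicates 3, 9, 10, 11 and 12. All antagonist libraries lay above all vehicle libraries, and the log2 fold change was 1.40 ± 0.25 (SE, edgeR adjusted p = 0.00271). Prkar2b, a regulatory subunit of protein kinase A, had a log2 fold change of −0.70, and Pde3b, the phosphodiesterase through which insulin restrains lipolysis, −0.45. Mgll, monoglyceride lipase, and G0s2, an inhibitor of the Pnpla2 enzyme, did not pass, with log2 fold changes of −0.16 and 0.05. Without antagonist replicate 4, vehicle replicate 10 or vehicle replicate 12, 2 genes of this list rose.

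Of 16 genes of fatty acid and glucose uptake and the insulin response, 8 rose, 3 fell and 5 did not pass, with a median log2 fold change of 0.43. Slc27a1, a fatty acid transporter, was at 40.0 ± 6.77 TPM in antagonist ears and 22.7 ± 3.43 TPM in vehicle ears, a log2 fold change of 0.84 ± 0.12 (SE, edgeR adjusted p = 0.00139). Acsl1, which activates fatty acids with coenzyme A, rose by 0.55. Cav1, the caveolin of fat cells and endothelium, fell by 0.61 on the log2 scale. Fabp5, the fatty acid binding protein of epidermis, and Cd36, a fatty acid receptor, did not pass, with log2 fold changes of −0.0033 and 0.30.

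For fatty acid and triglyceride synthesis, 3 of 16 genes rose, 0 fell and 13 did not pass. The risers were Acacb, an acetyl-CoA carboxylase, Gpam, which starts glycerolipid synthesis, and Dgat1, which ends it, with log2 fold changes of 0.45, 0.36 and 0.23. Scd1, a fatty acid desaturase, and Dgat2 had log2 fold changes of 0.02 and 0.15 and did not pass. Dgat1 was near the threshold, with an edgeR adjusted p of 0.0461. The count of lower genes was also 0 at an unadjusted p under 0.05, by DESeq2 and by limma. Without antagonist replicate 6 or vehicle replicate 3, 1 gene rose.

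The adipogenic transcription regulators held 5 genes that rose and 2 that fell among 16. Klf15, a factor induced by glucocorticoids and fasting, was at 17.9, 45.9, 28.4, 56.6 and 32.3 TPM in antagonist replicates 4, 6, 7, 8 and 10, against 8.66, 16.5, 8.88, 12.6 and 12.1 TPM in vehicle replicates 3, 9, 10, 11 and 12. The groups did not overlap, and the log2 fold change was 1.64 ± 0.29 (SE, edgeR adjusted p = 0.00253). Mlxipl, the glucose-sensing factor ChREBP, was low at 1.86 ± 0.40 TPM in antagonist ears and 0.97 ± 0.28 TPM in vehicle ears, and its log2 fold change was 1.14. Zfp423, a marker of committed preadipocytes, fell by 0.56. Klf4 and Cebpb, which act early in fat cell formation, did not pass. The 5 rises became 3 without antagonist replicate 6, 7, 8 or 10 or vehicle replicate 10, and 2 without vehicle replicate 3. The 2 falls became 1 without antagonist replicate 7, 8 or 10 or vehicle replicate 3, 9 or 10.

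Other adipocyte identity genes moved in both directions, with 3 higher, 3 lower and 12 not passing among 18, and a median log2 fold change of −0.12. Lgals12, a galectin of lipid droplets, was at 1.72 ± 0.45 TPM in antagonist ears and 2.98 ± 0.53 TPM in vehicle ears (log2 fold change −0.79, edgeR adjusted p = 0.00961). Npr3, the natriuretic peptide clearance receptor, fell by 0.57 on the log2 scale. Sncg, a synuclein of white fat and nerve, had a log2 fold change of −0.44 and did not pass. The summed TPM of the 18 genes was 251 to 727 with a median of 467 in antagonist ears, and 552 to 868 with a median of 574 in vehicle ears, with antagonist replicate 8 lowest.

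**Figure D5:**
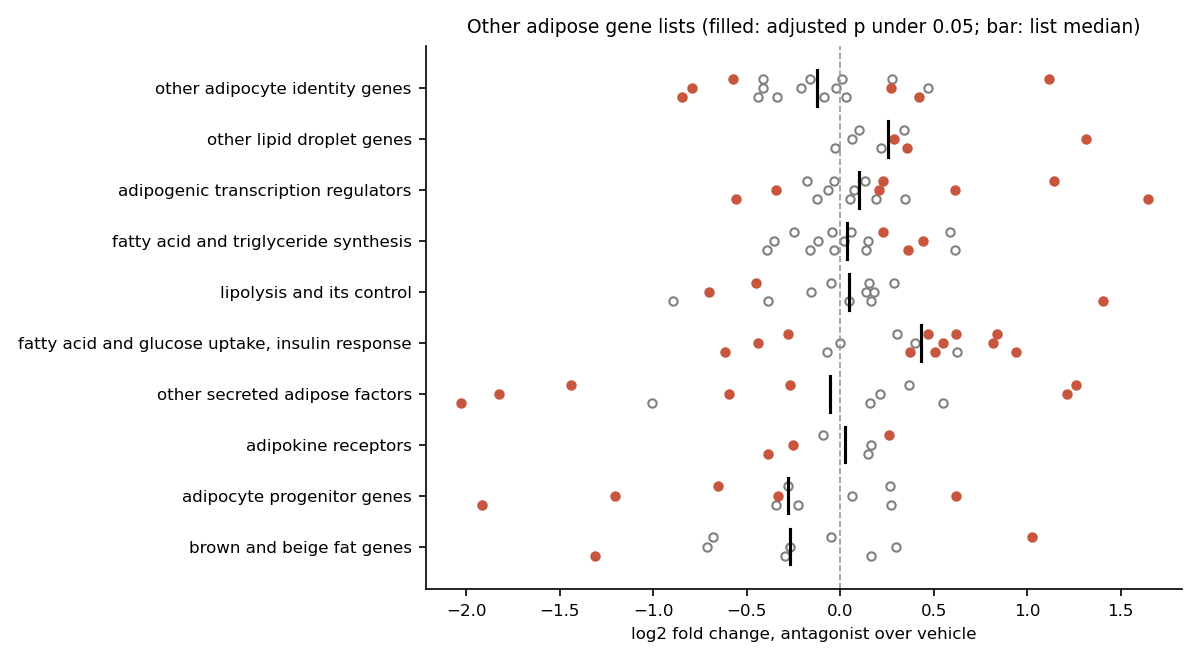
Log2 fold change of antagonist over vehicle (x axis) for the tested genes of the 10 other adipose lists (rows). Filled points have an edgeR adjusted p under 0.05, and black bars are list medians. The list of uptake and insulin response has the highest median, 0.43, and the list of progenitor genes the lowest, −0.28.

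Secreted factors of adipose tissue other than the 4 adipokines had 2 genes that rose, 5 that fell and 5 that did not pass among 12 tested. Rbp4, the retinol carrier, was at 30.1, 59.6, 43.2, 30.7 and 69.1 TPM in antagonist replicates 4, 6, 7, 8 and 10, against 19.0, 23.9, 15.7, 20.8 and 18.8 TPM in vehicle replicates 3, 9, 10, 11 and 12. Every antagonist library was higher than every vehicle library, and the log2 fold change was 1.26 ± 0.23 (SE, edgeR adjusted p = 0.00313). Apln, the gene of the peptide apelin, fell by 1.83 on the log2 scale. The 5 falls of secreted factors became 2 without antagonist replicate 6 or 8 or vehicle replicate 3 or 10, and 3 without antagonist replicate 7 or vehicle replicate 12. The 2 rises became 1 without antagonist replicate 6 or 7 or vehicle replicate 3 or 11. Among 6 adipokine receptor genes, the adiponectin receptor Adipor1 rose by 0.26, and 2 fell, Cap1, a resistin-binding protein, by 0.25 and the chemerin receptor Cmklr1 by 0.39. Leaving out 1 of 8 libraries (antagonist replicate 6, 7, 8 or 10, or vehicle replicate 3, 9, 10 or 11) left 1 receptor fall, and 2 receptors rose without antagonist replicate 8. The other adiponectin receptors on the list, Adipor2 and Cdh13, had log2 fold changes of 0.15 and −0.09 and did not pass.

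The progenitor list had 1 rise and 4 falls among 11 tested genes, with a median log2 fold change of −0.28. Pi16, a marker of fibroblasts that can form fat cells, was at 27.6 ± 10.2 TPM in antagonist ears and 104 ± 46.5 TPM in vehicle ears (log2 fold change −1.91 ± 0.31 SE, edgeR adjusted p = 0.00196). Cd34, a surface protein of progenitors and endothelium, was at 48.2 ± 7.12 TPM in antagonist ears and 111 ± 16.6 TPM in vehicle ears (log2 fold change −1.20, edgeR adjusted p = 0.000483). F3, tissue factor, rose by 0.62, and Ly6a and Pdgfra did not pass. The 4 falls became 2 without antagonist replicate 6 or 7 or vehicle replicate 10, and the 1 rise became 2 without vehicle replicate 12. For brown and beige fat, 1 of 9 tested genes rose and 1 fell. These were Tbx1 and Tmem26, both used as beige markers, with log2 fold changes of 1.02 and −1.31, and Elovl3 and Cox8b did not pass. Without antagonist replicate 8 or 10, 2 genes of this list fell. Ucp1, the uncoupling protein that defines thermogenic fat, did not pass the filter on low counts.

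Cells other than adipocytes express some of the members, and 5 marker lists were read beside them. No marker on these lists was at 0 in all 10 libraries. Skeletal muscle, which contains Plin4 and Plin5, had a summed TPM of 1525 to 3348 with a median of 2015 in antagonist ears and 1295 to 2912 with a median of 1986 in vehicle ears, highest in antagonist replicate 8. Acta1, the muscle gene with the highest mean level, weighs most in this sum, at 475 ± 142 TPM in antagonist and 476 ± 167 TPM in vehicle ears. The list's median log2 fold change was 0.43. Of its 12 genes, 2 rose, Atp2a1 by 1.14 and Myh1 by 0.98 on the log2 scale, and 0 fell. With the mean log2 CPM of the muscle list as a covariate, the log2 fold change of Plin4 was 1.25 with an edgeR adjusted p of 0.00849. Blood endothelium, which contains Fabp4, had a summed TPM of 277 to 326 in antagonist ears and 267 to 308 in vehicle ears, with 2 rises and 2 falls among 11 genes. Macrophage markers summed to 2750 to 4103 TPM in antagonist ears and 3363 to 5417 TPM in vehicle ears, with 1 rise and 3 falls among 11. Sebaceous gland markers, which stand beside Pparg, summed to 380 to 723 TPM in antagonist ears and 548 to 604 TPM in vehicle ears, with 1 rise and 0 falls among 10, and antagonist replicate 8 was lowest here too. The counts of 0 lower genes for muscle and sebaceous gland were also 0 at an unadjusted p under 0.05, by DESeq2 and by limma. In 1 of the 21 alternative settings 3 muscle genes were called lower. Over the fits that left out 1 library, muscle had 1 to 3 rises, endothelium 1 to 3 rises and 0 to 2 falls (0 without antagonist replicate 6), macrophages 0 to 1 rises and 2 to 6 falls (6 without vehicle replicate 12), and sebaceous gland 0 to 2 rises. The part of muscle, endothelium, macrophages and sebaceous glands in the members' levels was not tested. The fit with the muscle covariate adjusts for the mean of the list and does not show which cells held the Plin4 transcript.

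Most markers of cartilage, the core of the ear, were lower in antagonist ears. Of the 14 tested markers 11 fell and 0 rose, also 0 at an unadjusted p under 0.05, by DESeq2 and by limma, with a median log2 fold change of −1.59, and the summed TPM of the list was 336 to 588 in antagonist ears and 529 to 963 in vehicle ears. With the cartilage list's mean log2 CPM as a covariate, the log2 fold change of Plin4 was 0.43 with an edgeR adjusted p of 0.533, that of Lep was −1.18 and that of Adipoq −0.48. That of Fabp4 changed sign, to −0.50. Because most markers behind this covariate were lower in antagonist ears, it overlaps with the group. The standard error of Adipoq was 0.41 with it and 0.23 without it. The fit therefore cannot separate a group difference from the covariate, and the lost call of Plin4 and the sign of Fabp4 decide nothing about these genes. The 3 cartilage markers that did not pass were Chad, Acan and Sox9, with log2 fold changes of −0.20, −0.14 and −0.26, and Sox9 was named after its values were seen. Chad, a matrix protein gene, had by far the highest level of the list, at 331 ± 76.2 TPM in antagonist ears and 387 ± 98.4 TPM in vehicle ears (SD, n = 5 each), so the summed TPM mostly reflects it.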

How the data were processed

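RNA-seq of ear skin was deposited as 1 table of 19703 genes for 10 libraries, 5 per group. Reads were aligned with HISAT, per the submitters' processing notes; its version, the counter, the genome build and the annotation were not given in the sources used here. The library protocol in the labels uses oligo(dT) selection, random hexamers and DNA nanoballs, and names no step that marks strand. Per the file headers, the authors deposited expected counts, which need not be whole, with TPM and FPKM levels for each library; the authors' log2 fold changes and their DESeq2 p-values and q-values are in the same table. FPKM was not used. In the authors' table, 99.896% of genes with a log2 fold change above 1 had the higher mean TPM in antagonist ears, which gives its direction.

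Expected counts were rounded to whole numbers and tested with edgeR 4.0.16 (R 4.3.3): TMM factors (0.972 to 1.04), filterByExpr, and a quasi-likelihood test of antagonist against vehicle, with Benjamini-Hochberg adjustment over 15174 genes and a threshold of 0.05. The common biological coefficient of variation was 16.3%. Standard errors and 95% intervals come from the quasi-likelihood fit. Log2 CPM used a prior count of 2. Libraries held 20183024 to 20606007 expected counts; the floor given for a count of 0 is 3 counts and covers counting error only. Ratios and Adrb3 were tested by exact permutation of libraries between groups. Alternatives were DESeq2 1.42.0, limma 3.58.1 (voom, and trend on log2 TPM with a pseudocount of 1 or 0.1, which understates changes of low genes, keeping genes with at least 1 TPM in 5 libraries), other scaling factors, other filters (such as a mean of at least 50 counts), each library left out, and a covariate for muscle or cartilage markers. The edgeR steps were tested on simulated data. Upstream sequences are RefSeq's (GRCm38.p6).

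The members and gene lists were chosen with earlier results of these data known. Named genes are all members, from each list up to 3 called genes with the smallest p and up to 2 uncalled genes with the highest mean TPM, and the 10 genes most like Adipoq, Plin1 and Cidec over libraries. Some genes that this rule names are not reported here. The lists are other adipocyte identity, lipid droplet, transcription regulators, fatty acid and triglyceride synthesis, lipolysis, uptake and insulin response, secreted factors, adipokine receptors, progenitors, brown and beige fat, and markers of sebaceous gland, blood endothelium, macrophages, cartilage and skeletal muscle.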

Additional observations from a re-analysis of the deposited data

Results flagged for a closer look

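Fabp4 stood out in antagonist replicate 10, at 2157 TPM, against 731 to 966 TPM in the other 4 antagonist libraries. The gap to the nearest library was 0.835 of the group's whole range, above Dixon's critical value of 0.71 for 5 samples. This was 1 of 50 groups of values examined, and chance alone flags about 1 in 20. Without that library the log2 fold change of Fabp4 was 0.15, in place of 0.53 with all libraries.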

How the results depend on the processing

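Call counts and the 9 members' fold changes were recomputed under 21 alternatives, and the ratios under 11; the correlations, coefficients of variation, likeness values and the Adrb3 test were not. Plin4 kept its direction in all 21 and was called in 20, with a log2 fold change of 0.43 to 1.35, the exception being the cartilage covariate. The count of members called lower was 1, Lep, by limma-voom, by limma-trend with a pseudocount of 1 or 0.1 or with no filter, and 0 to 1 when 1 library was left out. With the cartilage covariate 0 genes were called higher and 0 lower over the whole table, with 0 members higher. The same fit called 0 other adipose genes higher and 0 lower. Most markers behind this covariate were lower in antagonist ears, so it overlaps with the group. With the muscle covariate 1592 genes of the whole table and 18 other adipose genes were higher; 18 were also higher by limma-trend with no filter. Leaving out 1 library gave 14 to 21 other adipose genes called lower, the lowest without vehicle replicate 10. The causes were not tested.

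Cfd and Cidec, whose fold changes were near 0, changed sign. The log2 fold change of Cfd was −0.026 by limma-trend with a pseudocount of 1, with or without the filter, −0.027 with 0.1, −0.10 and −0.074 without antagonist replicates 6 and 7, and −0.021 without vehicle replicate 3; leaving out 1 library gave −0.10 to 0.31. That of Cidec was 0.14 with the muscle covariate, 0.0074, 0.0088 and 0.21 without antagonist replicates 6, 7 and 8, and 0.0029, 0.019 and 0.018 without vehicle replicates 9, 10 and 11; leaving out 1 library gave −0.30 to 0.21. Fabp4 was −0.50 with the cartilage covariate. The causes were not tested. No paired analysis was possible because the groups share only 1 replicate number, 10. At 4 to 15 counts per library, Adrb3 could show large differences only.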
